A study of Mus musculus with 6 samples.

Results

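Scavenger receptors are cell surface and lysosomal proteins with which macrophages bind modified lipoproteins, bacteria, mineral particles and lipids. The 9 genes described here were chosen by name from such receptors, namely Marco, Msr1, Colec12, Cd36, Scarb1, Scarb2, Olr1, Stab2 and Lrp1, and all 9 were found among the 55487 genes of the deposited count table. The study grew mouse macrophages for 7 days with CSF-1, the macrophage growth factor, from 2 kinds of sorted cell. The labels call these TpMos and mature Ly6Chi monocytes, give BM as the source of the TpMos, and do not spell out either abbreviation. Each group, TpMo-derived and Ly6Chi-derived macrophages, held 3 libraries, and the comparison asks in what way their transcripts differ. Both groups shared medium, serum and culture time. Mouse strain, age, sex, number of animals and the CSF-1 concentration of each sample are not given in the sources used here, and neither is whether replicates came from separate cultures, so the p-values reflect only library-to-library spread, which may be technical.

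The receptors work in different ways. Class A receptors, here Marco, Msr1 and Colec12, carry a collagen-like stalk and bind polyanionic ligands such as oxidised or acetylated lipoprotein and bacterial surfaces, and Marco is known from macrophages of the splenic marginal zone and the lung alveolus. Class B receptors, here Cd36, Scarb1 and Scarb2, span the membrane at both ends and handle fatty acids, high-density lipoprotein and lysosomal cargo. Olr1 is a lectin-like receptor for oxidised lipoprotein, Stab2 a hyaluronan receptor known from liver sinusoidal endothelium, and Lrp1 a giant endocytic receptor for apolipoprotein E-bearing remnants and protease-inhibitor complexes. In these cultures 5 receptor transcripts were called different between the groups, where 12.3% of all genes tested were called. Marco, Colec12 and Stab2 were higher and Cd36 and Scarb2 lower in TpMo-derived macrophages, though Stab2 entered the test only through the group where it is high. Marco differed most among the abundant ones, by 9.51-fold.

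Total counts on genes ranged from 23765773 to 33042094 per library, so that 3 counts, the level taken as the floor, corresponded to 0.0921 to 0.130 CPM (the count of a gene scaled to a common library total by the TMM method of edgeR). Floors cover counting error only, whereas the intervals of edgeR also include the spread between libraries. The macrophage identity of the cells was seen in all 6 libraries. The 8 markers, among them Adgre1, Csf1r, Fcgr1, Mertk, Itgam, Cd68 and Lyz2, were detected in every library. They summed to 34811 to 37360 CPM in TpMo-derived and 28723 to 31733 CPM in Ly6Chi-derived libraries. Most of this sum was Lyz2, at 25681 against 23319 CPM, which was not called. Of the 8 markers 3 were called higher and 2, Itgam among them, lower, beside 12.3% of all genes called. Of markers of other cell types, all 7 of fibroblasts and 6 of 7 of lymphocytes had no count in any library. Neutrophil markers summed to at most 2.75 CPM, dendritic cell markers to at most 0.781 CPM, platelet markers to at most 3.21 CPM and erythroid markers to at most 3.68 CPM.

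Promoter letters are shown for the receptor with the largest difference among the abundant members, Marco, and for the most abundant receptor, Cd36, which went the opposite way. They are the 250 bases before the RefSeq start on GRCm38.p6, written 5′ to 3′ on the gene's strand, and capitals mark the only match to the motifs searched.
Marco, chr1:120505025-120505274, strand -: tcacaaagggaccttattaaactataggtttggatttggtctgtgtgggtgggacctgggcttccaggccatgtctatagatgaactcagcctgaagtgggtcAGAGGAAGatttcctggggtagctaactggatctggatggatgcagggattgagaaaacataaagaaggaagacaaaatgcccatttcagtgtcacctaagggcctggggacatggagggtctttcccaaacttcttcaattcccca
Cd36, chr5:17835897-17836146, strand -: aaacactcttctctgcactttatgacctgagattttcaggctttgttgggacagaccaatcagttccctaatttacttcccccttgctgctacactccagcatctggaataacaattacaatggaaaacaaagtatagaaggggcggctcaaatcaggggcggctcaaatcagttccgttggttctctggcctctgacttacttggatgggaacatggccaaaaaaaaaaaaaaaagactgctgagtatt
The capitals in Marco are AGAGGAAG, a purine-rich sequence of the kind bound by the myeloid factor PU.1, at positions -147 to -140 from the start. On either strand this motif was found in 3.67% of 32851 RefSeq promoter windows of the same length. The other motifs searched on both strands were the AP-1 site TGANTCA (6.75% of windows), the E-box CACGTG (6.02%), a GAAA pair of interferon elements spaced by NN (2.98%), the PPAR element of AGGTCA repeats spaced by N (0.0335%), the LXR element of AGGTCA repeats spaced by NNNN (0.0152%) and the MAF recognition core of TGCTGA and GCA spaced by NNNN (0.323%). The AP-1 letters were found in the window of Olr1, at -60 to -54, and in no other of the 6 receptors with an entry. None of the other motifs was present in either printed window, which says only that those letters are absent there. The Marco start was the same in RefSeq and in GENCODE, whereas the RefSeq start of Cd36 lies inside the GENCODE gene, which extends further upstream.

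Of the 13140 genes tested with the quasi-likelihood test of edgeR, 12.3% passed a Benjamini-Hochberg adjusted p under 0.05, 6.54% as higher and 5.79% as lower in TpMo-derived macrophages. All 9 receptors passed the count filter, and 3 were called higher and 2 lower. Their median log2 fold change was 0.08, beside 0.01 over all genes tested. The 2 groups did not overlap for the same 5 receptors, where 30.5% of all genes tested had groups without overlap. Stab2 passed the filter only through its TpMo-derived libraries and so had to differ. It is therefore described for itself and lends no weight to the count of members. The number of receptors called fell to 2 or 3 when any 1 library was left out, with Marco and Cd36 called each time.

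**Figure D1:**
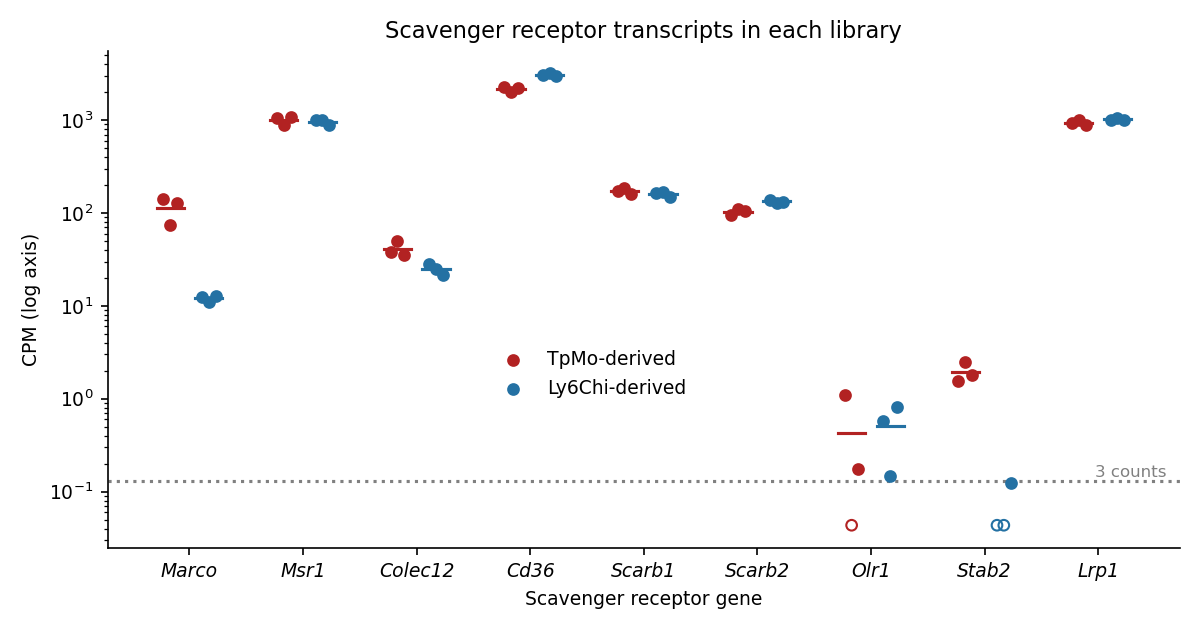
Level of each scavenger receptor in each library, in CPM on a log axis, for TpMo-derived (red) and Ly6Chi-derived (blue) macrophages, 3 libraries each. Horizontal bars are group means, open circles are libraries with no count drawn below the dotted line, which is the highest floor of 3 counts, and no bar is drawn for a mean under it. The groups are apart for Marco, Colec12, Cd36, Scarb2 and Stab2.

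Marco, the class A receptor for bacteria and unopsonised particles (ENSMUSG00000026390.7, chromosome 1, 120474538 to 120505024 on GRCm38, 17 exon blocks), stood out. TpMo-derived libraries held 140.1, 74.0 and 129.6 CPM of Marco and Ly6Chi-derived libraries 12.3, 10.9 and 12.8 CPM. The lowest TpMo-derived library, replicate 2, was thus still far above every Ly6Chi-derived library, and the spread was wider in the TpMo-derived group. The group means were 115 ± 35.5 and 12.03 ± 1.00 CPM (SD, n = 3), a log2 fold change of 3.25 ± 0.23 (SE, edgeR adjusted p = 2.40e-05), or 9.51-fold. Leaving out each library in turn moved the log2 fold change between 3.08 and 3.48, and the call was kept each time. The size of this difference was at the 99.0th percentile of all genes tested. None of its 51-base words, the read length, occurred in annotated transcripts of other genes, and no other gene overlapped its exons.

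Msr1, the founding class A receptor for acetylated and oxidised lipoprotein (chromosome 8, 39581685 to 39642673), was among the most abundant receptors and did not pass. It stood at 1058, 896 and 1097 CPM in TpMo-derived and at 995, 1002 and 890 CPM in Ly6Chi-derived libraries. The groups overlapped. The log2 fold change was 0.08 ± 0.08 (SE, edgeR adjusted p = 0.640), with a 95% interval of -0.10 to 0.26. A difference of the size seen for Marco lies outside that interval.

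Colec12, a class A receptor with a lectin domain that is best known from vascular cells (chromosome 18, 11 exon blocks), was higher in TpMo-derived macrophages at a lower level. The 3 TpMo-derived libraries held 37.6, 50.6 and 35.1 CPM, and the Ly6Chi-derived libraries 28.5, 25.0 and 21.3 CPM. The groups did not overlap, though the lowest TpMo-derived and the highest Ly6Chi-derived library were close. The log2 fold change was 0.72 ± 0.19 (SE, edgeR adjusted p = 0.0311), or 1.65-fold, and the call was lost in 5 of the 6 fits that left out 1 library, with adjusted p up to 0.122. Of its 51-base words, 4.14% also occurred in transcripts of other genes. All 7 fibroblast markers, from another cell type that could hold Colec12 transcripts, were at 0 in all 6 libraries, and endothelial markers are given with Stab2. The part of other cells in the Colec12 signal was not tested.

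Within a library Marco and Msr1 can be set against each other per kilobase of exon. The length used is that of all annotated exons of a gene together. It can differ from that of the transcripts present, so comparisons between genes depend on the annotation. The ratio of Marco to Msr1 was 0.437, 0.272 and 0.389 in TpMo-derived libraries and 0.0409, 0.0359 and 0.0476 in Ly6Chi-derived libraries. Per kilobase, Msr1 thus exceeded Marco in every library, by a smaller margin in each TpMo-derived library than in any Ly6Chi-derived one.

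**Figure D2:**
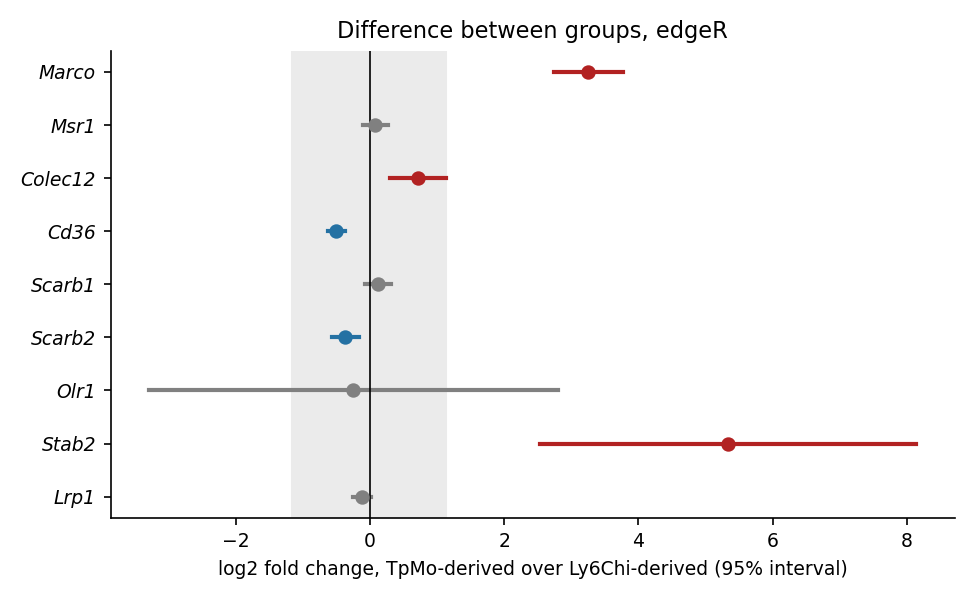
Log2 fold change of each scavenger receptor, TpMo-derived over Ly6Chi-derived, with 95% intervals from edgeR. Red marks receptors called higher, blue those called lower and grey those not called, and the grey band holds the 5th to 95th percentile of all genes tested, from -1.16 to 1.14. Marco and Stab2 lie right of the band and Olr1 has an interval that spans it.

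Cd36, the class B receptor and fatty acid transporter that takes up oxidised lipoprotein (ENSMUSG00000002944.15, chromosome 5, 17781690 to 17888801), was the most abundant receptor in every library and was lower in TpMo-derived macrophages. It stood at 2298, 2024 and 2221 CPM in TpMo-derived and at 3095, 3198 and 2977 CPM in Ly6Chi-derived libraries. The groups were well apart, and the spread within each was small. Means were 2181 ± 141 and 3090.0 ± 111 CPM (SD, n = 3), which gave a log2 fold change of -0.50 ± 0.06 (SE, edgeR adjusted p = 3.70e-04), or 1.42-fold higher in Ly6Chi-derived macrophages. The call held in every alternative run, with log2 fold changes from -0.55 to -0.45. Of 6 markers of platelets, another source of Cd36 transcripts, 3 were at 0 in every library, Gp9 and Gp1bb among them. The list summed to between 1.11 and 3.21 CPM in the TpMo-derived group and between 0.528 and 1.21 CPM in the other. The 2 markers that entered the test went opposite ways. Ppbp averaged 2.41 CPM in TpMo-derived and 0.121 CPM in Ly6Chi-derived libraries, and Gp1ba 0.0289 and 0.504 CPM. Neither was called (edgeR adjusted p of 0.0733 and 0.110). The part of platelets in the Cd36 signal was not tested.

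Scarb2, a lysosomal membrane protein that takes part in the transport of enzymes to the lysosome (chromosome 5, 92441314 to 92506833), was also lower. TpMo-derived libraries held 96.4, 109 and 104 CPM and Ly6Chi-derived libraries 139.6, 129.9 and 130.4 CPM. The groups did not overlap. The log2 fold change was -0.37 ± 0.09 (SE, edgeR adjusted p = 0.0234), or 1.29-fold higher in Ly6Chi-derived macrophages, and leaving out 1 library raised the adjusted p to as much as 0.0795 and ended the call in 5 of 6 cases.

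Scarb1, the receptor for selective uptake of cholesteryl ester from high-density lipoprotein (chromosome 5, 125277087 to 125341094), did not pass. Its levels were 173, 185 and 162 CPM in TpMo-derived and 163, 167 and 149.6 CPM in Ly6Chi-derived libraries, so that the groups overlapped. The log2 fold change was 0.12 ± 0.08 (SE, edgeR adjusted p = 0.469), with a 95% interval of -0.07 to 0.31. Per kilobase of exon, Cd36 exceeded Scarb1 in every library, by 31.4, 25.9 and 32.4 times in TpMo-derived and 44.9, 45.2 and 47.1 times in Ly6Chi-derived libraries.

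Lrp1, the endocytic receptor for remnants and protease complexes (ENSMUSG00000040249.15, chromosome 10, 127538161 to 127621148, 88 exon blocks), was abundant and did not pass. It stood at 926, 1009 and 885 CPM in TpMo-derived and at 1007, 1057 and 999 CPM in Ly6Chi-derived libraries. The highest TpMo-derived library lay between the Ly6Chi-derived ones. The log2 fold change was -0.12 ± 0.06 (SE, edgeR adjusted p = 0.282), with a 95% interval of -0.26 to 0.02.

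Stab2 and Olr1 were near the floor. Stab2 (chromosome 10, 86841198 to 87008025, 72 exon blocks) had 50, 67 and 42 counts in TpMo-derived libraries and 0, 0 and 4 counts in Ly6Chi-derived libraries. All 3 TpMo-derived libraries thus held Stab2 reads, at 1.53, 2.49 and 1.82 CPM, and of the other group replicate 3 held all 4 counts. Over summed counts the ratio was 41.9, with a 95% interval of 16.0 to 156 (exact binomial, counting error only). That interval takes each count as independent, whereas mates of a pair were counted separately, so it is too narrow. The fitted log2 fold change of 5.34 ± 1.26 (SE, edgeR adjusted p = 0.0206) depends on how a near-empty group is smoothed. It was 8.74 without Ly6Chi-derived replicate 3, and the call was lost without any 1 of the other 5 libraries (adjusted p from 0.0527 to 0.0711). An antisense gene, Gm16268, covers 1.61% of the exon bases of Stab2.

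Stab2 is otherwise known from sinusoidal endothelium, and endothelial transcripts were looked at beside it. The 7 endothelial markers summed to between 29.2 and 33.6 CPM in the TpMo-derived group and between 7.50 and 24.8 CPM in the other. Nearly all of this was Kdr, a growth factor receptor, at 29.97 ± 2.53 against 14.7 ± 8.37 CPM (SD, n = 3), which was not called (edgeR adjusted p = 0.0878). Pecam1, an adhesion molecule also made by myeloid cells, averaged 0.880 and 0.0207 CPM and was called higher (edgeR adjusted p = 0.0356). With 38, 21 and 16 counts against 0, 0 and 2, Pecam1 passed the filter only through its TpMo-derived libraries. Like Stab2 it thus had to differ, and its call lends no weight. Tek, Emcn and Clec4g were at 0 in every library, and Cdh5 and Lyve1 averaged at most 0.218 CPM in either group. The part of such cells in the Stab2 signal was not tested. In bulk libraries such as these, fewer cells of a type and less RNA per cell cannot be told apart.

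Olr1, known from endothelium and activated macrophages (chromosome 6, 129485244 to 129507165), had 36, 0 and 4 counts in TpMo-derived and 16, 4 and 26 counts in Ly6Chi-derived libraries. Levels were scattered in both groups and overlapped. The log2 fold change of -0.25 ± 1.37 (SE, edgeR adjusted p = 0.948) has a 95% interval of -3.29 to 2.80, which spans large differences in either direction.

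**Figure D3:**
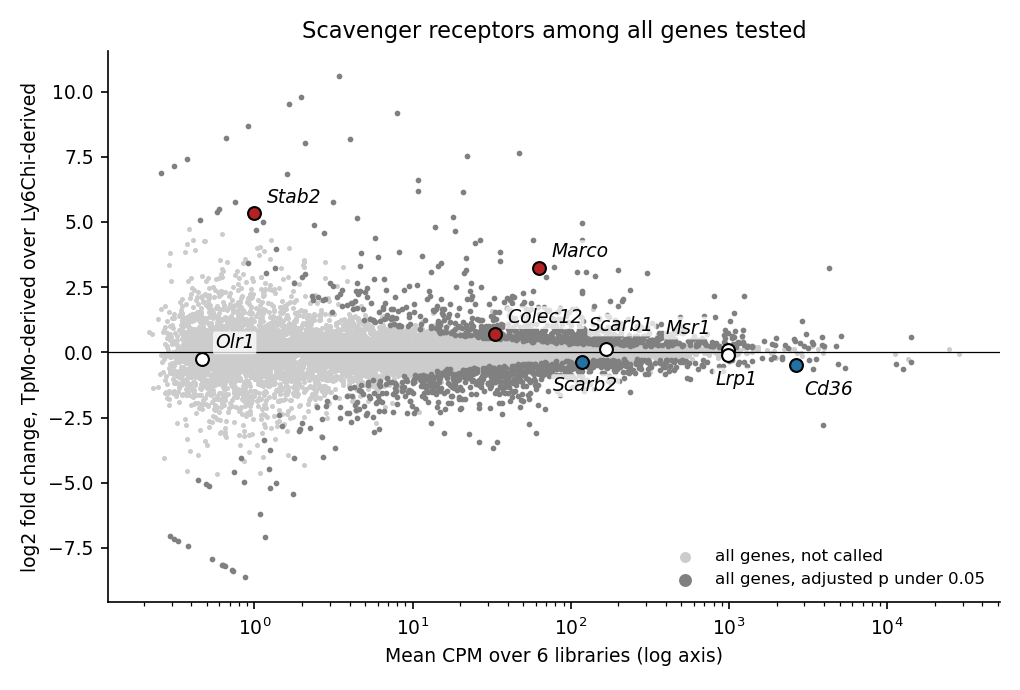
Log2 fold change against mean CPM over the 6 libraries (log axis) for the 13140 genes tested, in light grey where not called and in dark grey where called, with the scavenger receptors as large points (red higher, blue lower, white not called). Marco has a mean of 63.3 CPM and a log2 fold change of 3.25, whereas Cd36, at -0.50, Msr1, at 0.08, and Lrp1, at -0.12, lie at the right of the plot.

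Levels of different genes were compared per kilobase of exon, so that their order depends on the annotated exon lengths. In TpMo-derived macrophages Cd36 led with 607 ± 39.3 CPM per kilobase (SD, n = 3), followed by Msr1 with 160.3 ± 16.8. Marco with 59.5 ± 18.5 and Lrp1 with 53.1 ± 3.55 came next and overlapped each other. Scarb1 at 20.4, Scarb2 at 16.4 and Colec12 at 4.71 CPM per kilobase followed without overlap. Stab2 at 0.222 and Olr1 at 0.119 CPM per kilobase closed the order and overlapped.

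In Ly6Chi-derived macrophages the same top pair, Cd36 at 861 ± 30.8 and Msr1 at 152 ± 9.93 CPM per kilobase, was followed by Lrp1 at 57.6, Scarb2 at 21.2 and Scarb1 at 18.8. Marco followed at 6.25 ± 0.52 CPM per kilobase, above Colec12 at 2.86. Marco thus had rank 3 in TpMo-derived and rank 6 in Ly6Chi-derived macrophages, and Scarb1 and Scarb2 exchanged places. No 2 neighbours in the Ly6Chi-derived order overlapped between libraries.

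Summed over the 9 receptors, the level per kilobase was lower in TpMo-derived macrophages, at 972, 846 and 949, than in Ly6Chi-derived macrophages, at 1127, 1157 and 1074 CPM per kilobase. Cd36 made up most of this sum, and its share was 65.8, 66.7 and 65.2% in TpMo-derived and 76.5, 77.0 and 77.2% in Ly6Chi-derived libraries. Msr1 held 17.4 ± 0.78% against 13.5 ± 0.44% (SD, n = 3) although its own level did not pass the test, because a share also moves with the other members. Marco held 7.49, 4.54 and 7.10% in TpMo-derived libraries and 0.569, 0.490 and 0.621% in Ly6Chi-derived libraries. The share of Lrp1 was 5.38, 6.73 and 5.27% in TpMo-derived libraries and 5.04, 5.16 and 5.25% in Ly6Chi-derived libraries, so that the groups came close to each other without overlap.

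**Figure D4:**
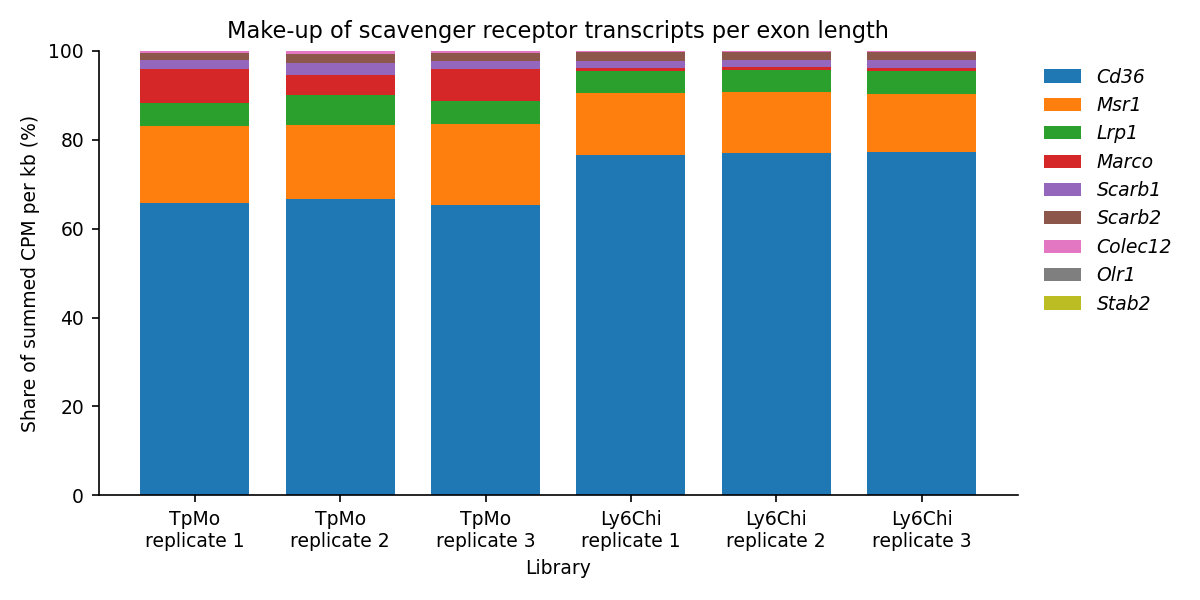
Share of each scavenger receptor in the summed CPM per kilobase of exon of the 9 genes, in percent, for each of the 6 libraries. Cd36 takes at most 66.7% of any TpMo-derived library and at least 76.5% of any Ly6Chi-derived one, and the Marco segment is visible mainly in the TpMo-derived bars.

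Other genes were picked for their likeness to the changed receptors across the 6 libraries. Their differences between the groups thus follow from this choice and lend no weight. Likeness was measured as the root mean square difference of log2 CPM, each gene centred on its own mean. It was sought among 8879 tested genes that averaged 5 CPM or more and whose symbol was neither a clone name nor a predicted gene. Nearest to Marco were C1qa, a chain of complement C1q (difference 0.15), Apoe, the lipoprotein ligand (0.23), and Fcrls, an Fc receptor-like gene known from mouse microglia (0.24). Apoe stood at 7721 ± 2168 against 814 ± 248 CPM (SD, n = 3) and C1qa at 359 against 39.7 CPM. Nearest to Cd36 were Slc25a17, Atp6v1c1, a subunit of the lysosomal proton pump, and Dnajc18, with differences of 0.03, 0.05 and 0.05. Scarb2 was closest to Far1, Bub3 and Azin1, and Colec12 to Abcb4, Lpl and Ppp2ca. For Stab2 even the nearest profiles, Ifit1, Ms4a4a and Ms4a4c, differed by 0.60 to 0.66.

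The remaining scavenger receptor genes were described from a list of 13 further genes of this kind. Of the 10 tested, 5 rose and 1 fell in TpMo-derived macrophages, with a median log2 fold change of 0.60, beside the 12.3% of all genes called. Mrc1, the mannose receptor, averaged 698 ± 97.2 and 276 ± 28.5 CPM (SD, n = 3) and rose by 1.34 ± 0.11 on the log2 scale (SE, edgeR adjusted p = 4.15e-05). Cxcl16, a chemokine whose membrane form binds oxidised lipoprotein, rose by 1.28 on the log2 scale. Zmynd15 overlaps 18.3% of its exon bases, and by the counting defaults reads on both genes were left out. Stab1, the paralogue of Stab2 found on macrophages, was abundant and stood at 1235 ± 76.7 against 845 ± 12.9 CPM. Cd14, the lipopolysaccharide co-receptor, rose by 0.75 on the log2 scale. Cd163, the haemoglobin receptor, was the other gene that rose, at 6.39 against 1.99 CPM (edgeR adjusted p = 0.0350), and is named after its values were seen. Leaving out 1 library gave 5 to 6 called genes in this list. The other called genes kept their calls each time, so the call lost was that of Cd163. Clec7a, the beta-glucan receptor, fell from 129 ± 12.7 to 41.4 ± 3.16 CPM, a log2 fold change of -1.64 ± 0.11 (SE, edgeR adjusted p = 2.26e-05). Cd68, the lysosomal marker of macrophages, averaged 2679.6 and 2454 CPM and was not called (edgeR adjusted p = 0.157).

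The LDL receptor family beside Lrp1 was described from 12 genes. Of these 10 were tested, 0 rose and 2 fell, with a median log2 fold change of 0.00, beside 12.3% of all genes called. Sorl1, a sorting receptor, fell by 0.96 on the log2 scale, to 7.73 ± 1.41 CPM (edgeR adjusted p = 0.0299), and Ldlrad3 from 29.9 ± 0.86 to 17.2 ± 4.43 CPM (edgeR adjusted p = 0.0329). Each of these calls was lost in 5 of 6 fits without 1 library. In those fits the edgeR adjusted p was 0.0506 to 0.119 for Sorl1 and 0.0659 to 0.102 for Ldlrad3. Lrp10, an endocytic receptor of this family, averaged 125 and 101 CPM and was not called (edgeR adjusted p = 0.179).

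Among 18 genes of receptor chaperones, adaptors and cargo, 14 were tested, 3 rose and 3 fell, with a median log2 fold change of 0.07, beside 12.3% of all genes called. Lrpap1, the chaperone that escorts Lrp1 through the secretory pathway, fell from 509 ± 39.6 to 392 ± 11.7 CPM, a log2 fold change of -0.38 ± 0.07 (SE, edgeR adjusted p = 0.0064). Cd9, a tetraspanin that associates with Cd36, fell by 0.33 on the log2 scale (edgeR adjusted p = 0.0493), and this call was lost in 5 of 6 fits without 1 library. Of the ligands, Apoe rose as given above, and Lpl, the lipoprotein lipase, stood at 6178 ± 812 against 3995 ± 498 CPM (edgeR adjusted p = 0.00335). Itgb1, an integrin chain, rose by 0.39 on the log2 scale (edgeR adjusted p = 0.00199).

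Genes that handle lipid after uptake were all tested, and 2 of 15 genes rose and 2 fell, beside 12.3% of all genes called. The median over the list was -0.07 on the log2 scale. The cholesterol exporters Abca1 and Abcg1 rose, Abca1 from 15.5 ± 3.69 to 69.1 ± 14.1 CPM (edgeR adjusted p = 1.45e-04) and Abcg1 from 82.4 ± 3.52 to 152 CPM. Soat1, which esterifies cholesterol for storage, fell from 968 ± 48.9 to 591 ± 40.3 CPM, a log2 fold change of -0.71 ± 0.07 (SE, edgeR adjusted p = 1.14e-04). Lamp2, a lysosomal membrane protein, fell by 0.38 on the log2 scale. The lysosomal acid lipase Lipa, at 2806 against 2884 CPM, and the lipid droplet protein Plin2, at 4222 ± 1101 against 3798 ± 190.3 CPM, did not pass. Plin2 was called without TpMo-derived replicate 2 (edgeR adjusted p = 0.0050), the library with its lowest level.

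Known or proposed transcriptional regulators of these receptors were called in 3 of 15 tested genes, 2 higher and 1 lower, with a median log2 fold change of -0.11, beside 12.3% of all genes called. Leaving out 1 library gave 1 to 3 called regulators. Maf, a macrophage transcription factor, rose from 80.5 ± 2.26 to 118 ± 3.78 CPM (edgeR adjusted p = 0.00259). Pparg, a nuclear receptor known to induce Cd36 in macrophages, averaged 38.9 ± 5.65 and 24.5 ± 4.87 CPM and rose by 0.67 ± 0.19 on the log2 scale (SE, edgeR adjusted p = 0.0452). Pparg was thus called higher where Cd36 was called lower, and a link between the 2 genes was not tested. The Pparg call was lost with library totals in place of TMM (adjusted p = 0.0603) and in 5 of 6 fits without 1 library. Spi1, which encodes PU.1, averaged 434 and 387 CPM (edgeR adjusted p = 0.183) and was not called, nor was Stat6 (edgeR adjusted p = 0.545).

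**Figure D5:**
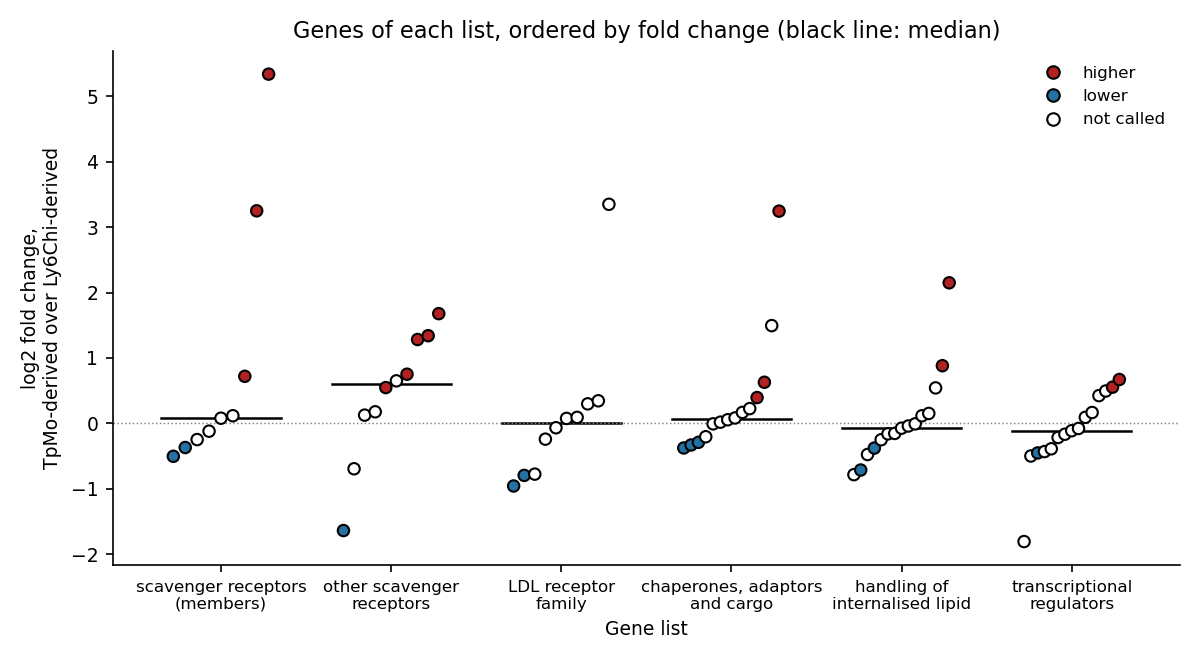
Log2 fold change of every tested gene in the scavenger receptor set and in 5 further lists, ordered within each list, with red for called higher, blue for called lower and white for not called, and black lines at list medians. The further scavenger receptors have a median of 0.60, and the other lists have medians between -0.11 and 0.08.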

How the data were processed

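Total RNA of 6 macrophage libraries was sequenced as paired reads with SMART-seq v2, per the labels' protocols. The deposited table of the authors holds unnormalized gene counts. Per the file headers, featureCounts 1.6.3 counted reads over exons of GENCODE M22, with no option for pairs, strand or reads on several genes or places. By that program's defaults mates were counted separately, strand was ignored and such reads were left out. STAR and GRCm38 come from the submitters' processing notes. Symbols came from GENCODE M21 (55394 identifiers matched, 93 did not), promoter letters from RefSeq (GRCm38.p6), where 6 of the 9 receptors had an entry.

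Genes were filtered with filterByExpr (minimum count 10, minimum total 15), scaled by TMM and tested with the robust quasi-likelihood test of edgeR 4.0.16 in R 4.3.3, with Benjamini-Hochberg adjustment over 13140 genes. Standard errors were derived from each gene's fold change and F value. Positive log2 fold changes are higher in TpMo-derived macrophages. CPM values use TMM totals. Replicates were numbered in accession order. Alternatives were DESeq2 1.42.0, limma-voom (limma 3.58.1), other scaling and filters, and leaving out each library. The test was tested on simulated data.

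The receptors, gene lists, motifs and tests were chosen with earlier results of these data known. Besides the 9 receptors, the text names in each list up to 4 called genes per direction by p and the 2 most abundant genes, plus the 3 nearest profiles of each called receptor, and marker genes and chromosomal neighbours. Some listed genes are counted but not reported by name here. Libraries of a group differed by more than counting error (chi-square per degree of freedom 22.1 to 36.5).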

Additional observations from a re-analysis of the deposited data

How the results depend on the processing

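No paired analysis was possible because no number, batch or animal in the labels links libraries of the 2 groups. Directions of Marco, Msr1, Colec12, Cd36, Scarb1, Scarb2, Stab2 and Lrp1 were kept in every alternative run, and so were the calls of Marco and Cd36. All 5 receptor calls held with DESeq2 size factors, library totals, no filter, the DESeq2 Wald test and limma-voom. With at least 5 CPM in 3 libraries, 4 were called, since Stab2 and Olr1 left the test. Leaving out 1 library gave 2 to 3 called receptors and 976 to 1492 changed genes (531 to 750 higher, 445 to 742 lower). It gave log2 fold changes of -0.41 to -0.32 for Scarb2, 0.54 to 0.82 for Colec12, 4.82 to 8.74 for Stab2 and -2.54 to 0.33 for Olr1. It gave 0 to 1 called genes of the LDL receptor family and 1 to 3 of the regulators. These fits have fewer samples. The DESeq2 Wald test called 2383 genes (1207 higher, 1176 lower) and 5 genes of the LDL receptor family, for which the cause was not tested. With library totals the split was 737 higher and 902 lower. The values of Olr1 and Stab2 rest on few reads, 40 and 159 counts over the TpMo-derived and 46 and 4 over the Ly6Chi-derived libraries, and those of Olr1 also scatter between libraries of 1 group, from 0 to 36 counts.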

Other observations

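The receptor genes were also set beside their nearest tested neighbours on the chromosome, among genes annotated as protein-coding or polymorphic pseudogene. Olr1, with at most 1.11 CPM in any library, lies 12.5 kb from Clec7a, which stood at 41.4 against 128.9 CPM, and 26 kb from Gabarapl1, at 62.9 against 79.9 CPM, which did not pass (edgeR adjusted p = 0.0759). Lrp1 lies between Stat6, at 21.8 kb, and Shmt2, the mitochondrial serine hydroxymethyltransferase, at 15.7 kb. Shmt2 was higher in TpMo-derived macrophages, at 166 against 72.9 CPM (log2 fold change 1.19, edgeR adjusted p = 5.59e-05), while Lrp1 and Stat6 did not pass. Marco lies 202 kb from Steap3, a metalloreductase of iron uptake, which was higher with a log2 fold change of 0.62 (edgeR adjusted p = 0.0147). Its neighbour on the other side, Insig2, at 799 kb, did not pass (log2 fold change -0.36, edgeR adjusted p = 0.0877). Cd36, Scarb1 and Scarb2 all lie on chromosome 5, and none of their 6 nearest tested neighbours, at 6.1 to 2870 kb, passed.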
